A study of Mus musculus with 5 samples.

Results

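The genes described here encode the machinery that builds melanosomes, the pigment organelles of melanocytes, and carries them to the cell surface. They were chosen as a list of 42 genes by name, and 41 of them were found among the 24100 genes counted; Vamp7 was not analysed here. Pigment cargo leaves early endosomes in carriers formed by the protein complexes BLOC-1 and BLOC-2 and the adaptors AP-3 and AP-1, and the HOPS complex tethers late endosomal membranes before fusion. The exchange factor BLOC-3 activates the small GTPases Rab32 and Rab38, which direct these carriers to the maturing melanosome. Finished melanosomes are held at the actin cortex by a chain of Rab27a, its effector melanophilin (Mlph) and the motor myosin Va (Myo5a). Inherited loss of some of these genes dilutes coat colour in mice, and loss of several causes Hermansky-Pudlak, Griscelli or Chediak-Higashi syndrome in people.

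Poly-A RNA of sorted back skin cells from male mice was sequenced without strand information. The 2 quiescent melanocyte stem cell (McSC) libraries came from the second telogen, the resting phase of the hair cycle, at postnatal days 60 and 62, and the 3 melanocyte libraries from full anagen, the growth phase, at postnatal day 10. All mice were of a mixed CD1 and C57Bl6J background and carried the Dct-eGFP reporter; the melanocyte donors also carried Lef1-RFP. Both sorts took eGFP-positive cells with medium to low integrin α6 and without CD31, CD45, CD140a, Sca1 and CD34, and the melanocyte sort also required Lef1-RFP and c-Kit. Each library pooled cells of 2 to 4 males. The groups therefore differed at once in age, in hair cycle stage, in reporter strain and in gate, and these cannot be told apart.

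Total counts ran from 17512381 to 124530834 per library, and 3 counts corresponded to between 0.0268 and 0.16 CPM. CPM values here are counts scaled by each library's total and its TMM factor, which corrects for differences in RNA composition. Summed over 8 melanocyte markers (Dct, Pmel, Tyr, Tyrp1, Mlana, Mitf, Sox10 and Kit), the quiescent McSC libraries stood at 19060 and 20296 CPM and the melanocyte libraries at 2996, 17596 and 19163 CPM. Of the 8, Mitf, Sox10 and Kit were called higher in quiescent McSC and 5 were not called. Melanocyte replicate 1 thus stood apart from the other melanocyte libraries, with a median log2 ratio of -2.55 to their mean over these 8 genes, against -0.01 over all tested genes. Markers of other skin cells also differed between the groups. The sum over 11 hair follicle and hair shaft markers was 3578 to 5237 CPM in melanocytes and 20.7 to 67.8 CPM in quiescent McSC. Over 8 fibroblast and dermal papilla markers it was 1882 to 5343 against 12.5 to 41.4 CPM. This second sum was highest in melanocyte replicate 1 (5343 CPM), with 2014 and 1882 CPM in replicates 2 and 3. All 11 and all 8 were called higher in melanocytes; Krt34 had no count in quiescent McSC and no other marker of these 2 lists was at 0 in a library. The 5 endothelial markers, all called higher in melanocytes, summed to 16.4 to 40.9 against 0.722 to 1.12 CPM, with Cdh5 and Emcn at 0 in a library. The 6 immune markers summed to 28.5 to 51.1 against 12.4 to 13.4 CPM, with 3 called higher in melanocytes and 2 in quiescent McSC and Cd3e at 0 in a library. The 9 keratinocyte markers, 4 called in each direction, summed to 3615 to 4962 against 3065 to 4202 CPM, and the 5 Schwann cell markers to 96.9 to 129 against 584 to 585 CPM, with 3 called higher in melanocytes and 2 in quiescent McSC. The part of these cells in the differences below was not tested. In sorted pools, fewer cells of a type and less RNA per cell cannot be told apart.

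Between the groups, 6 of the 41 members were called higher in melanocytes, and 19 were called toward quiescent McSC, where a call is an adjusted p under 0.05 in edgeR's quasi-likelihood test over all genes. Of all 16953 tested genes, 29.1% were called toward melanocytes and 26.2% toward quiescent McSC. The members' shares were 14.6% and 46.3%. Called in either direction were 61% of the members and 55.4% of all genes, so the share that changed lay near the background. All 41 members passed the filter on low counts. The median log2 fold change, melanocyte minus quiescent McSC, was -0.36 over the members and 0.03 over all tested genes, and 29 members lay within a 2-fold difference. In melanocyte replicate 1, 36 of the 41 members were below the mean of the other melanocyte libraries (median log2 ratio -0.33), against 8598 of all 16953 genes (median -0.01). Without that library the members' median fold change was -0.31 and that of all genes 0.01. Called and at least 2-fold different were 4 members toward melanocytes (20.3% of all genes) and 7 toward quiescent McSC (16.7% of all genes). The groups did not overlap in 33 members (80.5%, against 74.5% of all genes). The balance of this split narrowed with another scaling. With library size only, under which the median over all genes moved to 0.26 (log2), 11 members were called toward melanocytes and 13 toward quiescent McSC, and 63.7% of all calls lay toward melanocytes in place of 52.6%. Without quiescent McSC replicate 1 the members' median fold change was -0.42 and that of all genes 0.05. Without quiescent McSC replicate 2 these were -0.32 and 0.07. In both fits fewer members, and also fewer of all genes, were called in each direction.

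**Figure D1:**
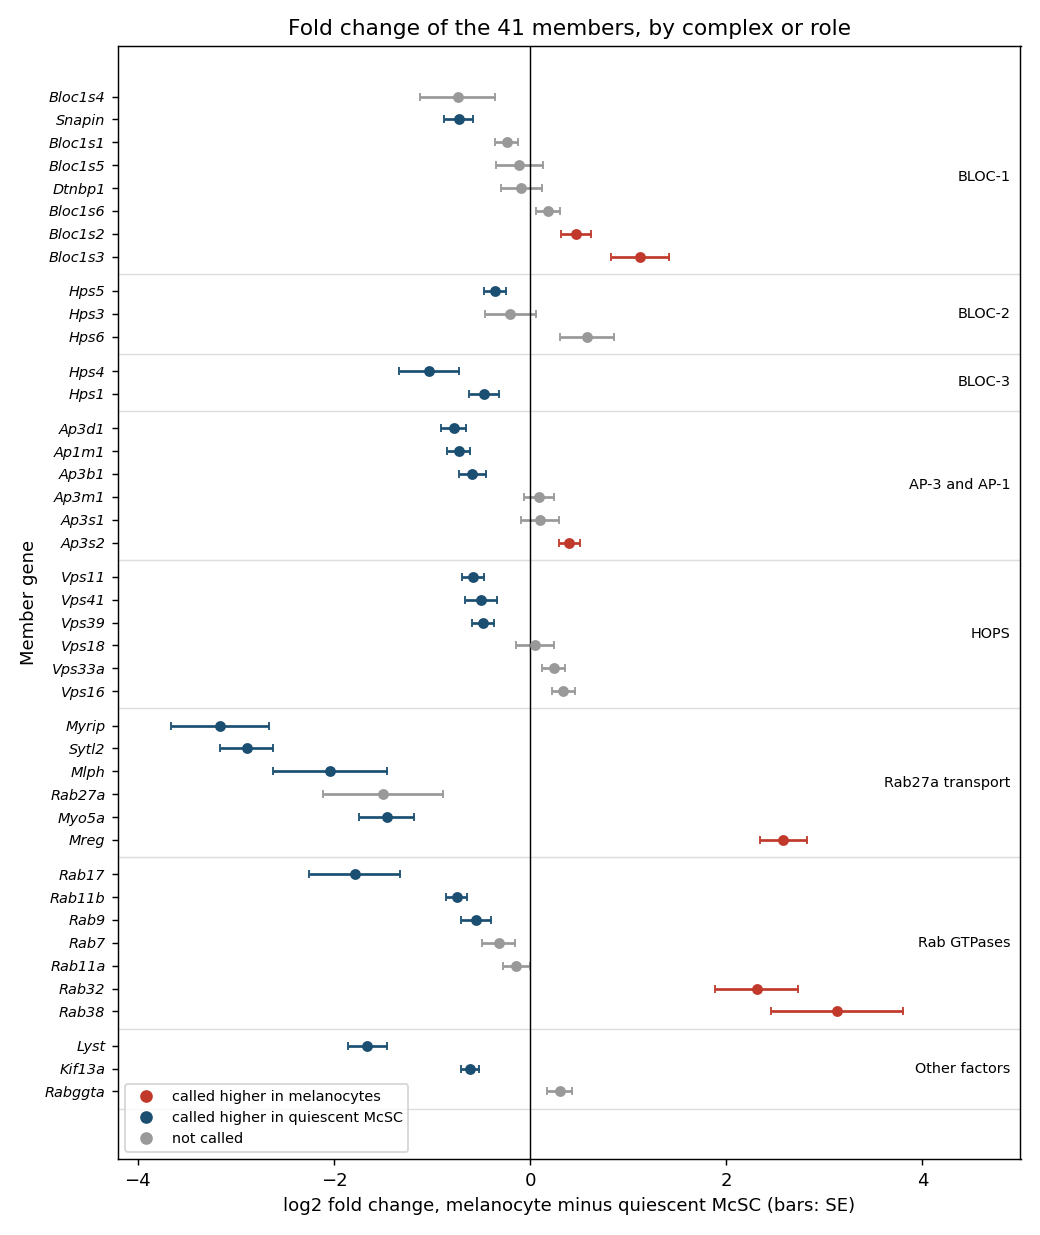
Log2 fold change of each of the 41 members, melanocyte minus quiescent McSC, with its standard error as bars, grouped by complex or role. The BLOC, AP-3 and HOPS members lie between -1.03 (Hps4) and 1.12 (Bloc1s3). Rab38, Mreg and Rab32 reach 3.13, 2.58 and 2.31, and Myrip, Sytl2 and Mlph reach -3.16, -2.89 and -2.04.

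The DNA around the start sites was examined for E-boxes, the 6-base elements read by Mitf and its relatives, which regulate pigment and lysosomal genes. Windows of 300 bases, 250 before and 50 after a RefSeq start site (GRCm38.p6), were found for 33 of the 41 members. Rab38, Sytl2, Snapin, Vps11, Vps39, Ap1m1, Ap3s1 and Bloc1s6 had no window and were not searched. CACGTG, a palindrome, stood in the windows of 9 of these 33 genes (27.3%), against 8.09% of all 27025 genes with a window and 8.91% of the protein-coding ones. The 9 genes were Bloc1s1, Bloc1s3, Hps1, Hps3, Hps5, Mlph, Rab27a, Vps16 and Vps33a. CATGTG, searched on both strands and unable to overlap a CACGTG, stood in those of 4 genes (12.1%, against 15.9% of all genes), and its longer form TCATGTG, the core of the M-box, in 2 (6.06%, against 4.31%). Median GC content was 59.7% in the members' windows and 52.7% in all windows. Of the 9 genes, Bloc1s3 was called higher in melanocytes, Hps1, Hps5 and Mlph were called higher in quiescent McSC, and 5 were not called. The windows below show the element beside the start site in a gene of each of 4 complexes or groups, with capitals marking CACGTG and CATGTG, and the window of Rab32, a called gene in which neither occurs. A match is a description of the letters and not a binding site.
Mlph (chr1:90914850-90915149, plus strand): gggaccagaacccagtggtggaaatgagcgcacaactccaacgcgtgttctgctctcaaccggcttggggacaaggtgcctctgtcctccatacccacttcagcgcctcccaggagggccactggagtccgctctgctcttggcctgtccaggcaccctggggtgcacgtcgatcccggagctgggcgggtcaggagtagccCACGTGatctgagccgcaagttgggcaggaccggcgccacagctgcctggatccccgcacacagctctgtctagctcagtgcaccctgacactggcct
Hps1 (chr19:42779929-42780228, minus strand): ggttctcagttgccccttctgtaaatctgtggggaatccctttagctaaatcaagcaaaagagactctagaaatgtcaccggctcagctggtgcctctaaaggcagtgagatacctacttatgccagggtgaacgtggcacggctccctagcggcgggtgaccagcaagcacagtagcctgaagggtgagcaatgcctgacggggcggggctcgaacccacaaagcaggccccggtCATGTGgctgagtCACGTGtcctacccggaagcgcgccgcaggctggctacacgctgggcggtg
Bloc1s3 (chr7:19508321-19508620, minus strand): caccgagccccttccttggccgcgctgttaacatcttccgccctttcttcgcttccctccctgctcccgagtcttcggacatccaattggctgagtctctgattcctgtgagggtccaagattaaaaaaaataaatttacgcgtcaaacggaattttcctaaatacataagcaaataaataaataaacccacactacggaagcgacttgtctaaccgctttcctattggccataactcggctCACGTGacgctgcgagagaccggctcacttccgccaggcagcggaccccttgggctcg
Vps33a (chr5:123572966-123573265, minus strand): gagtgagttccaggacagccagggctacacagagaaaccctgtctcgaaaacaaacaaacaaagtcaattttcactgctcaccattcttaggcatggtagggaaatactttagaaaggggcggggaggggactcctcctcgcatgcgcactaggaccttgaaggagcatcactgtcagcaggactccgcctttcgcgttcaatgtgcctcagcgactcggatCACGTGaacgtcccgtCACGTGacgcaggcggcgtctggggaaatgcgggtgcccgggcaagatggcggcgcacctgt
Rab32 (chr10:10558158-10558457, minus strand): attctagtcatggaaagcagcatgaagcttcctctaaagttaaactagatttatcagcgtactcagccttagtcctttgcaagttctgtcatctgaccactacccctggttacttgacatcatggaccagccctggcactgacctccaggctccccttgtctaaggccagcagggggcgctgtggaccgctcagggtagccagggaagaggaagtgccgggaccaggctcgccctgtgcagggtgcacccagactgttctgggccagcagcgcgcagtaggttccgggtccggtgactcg
The elements began at -48 in Mlph, -14 (CATGTG) and -1 in Hps1, -8 in Bloc1s3, and -28 and -12 in Vps33a, counted from the start site. In the genes not shown, CACGTG began at -19 and -3 in Bloc1s1, -15 in Hps3 and -18 in Vps16. It lay further away in Rab27a (-246) and Hps5 (-227 and -192). Rab27a and Hps1 each also had a window without either element.

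The genes of Rab27a-dependent transport had the median furthest from 0 among the classes. Of these 6 genes, 4 were called higher in quiescent McSC, 1 was called higher in melanocytes and Rab27a itself was not called (median log2 fold change -1.77). The shares were 66.7% toward quiescent McSC and 16.7% toward melanocytes, against 26.2% and 29.1% of all genes. The group's quiescent values lay outside the range of the melanocyte values in 6 of 6 genes, as it did in 74.5% of all tested genes.

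Rab27a, the GTPase that marks mature melanosomes (chr9:73044810-73097623, GRCm38.p6, the build of all positions here), read 371 and 431 CPM in quiescent McSC and 40.5, 187 and 197 CPM in melanocyte replicates 1 to 3. Both quiescent libraries were above all melanocyte libraries, and replicate 1 was far below the other melanocyte libraries. The fold change was -1.50 ± 0.61 (log2, SE), not called (edgeR adjusted p = 0.0783). Without melanocyte replicate 1 it was -1.06 and called (edgeR adjusted p = 0.000701).

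Mlph, the adaptor that Rab27a recruits, read 601 and 742 CPM in quiescent McSC and 52.1, 192 and 246 CPM in melanocytes. The order of the libraries was that of Rab27a. The mean was 671 ± 99.5 (SD, n = 2) against 163 ± 100 CPM (SD, n = 3), a fall of the fitted level by 2.04 ± 0.58 on the log2 scale (edgeR adjusted p = 0.0258). Its call was lost without quiescent McSC replicate 1 (0.0762), quiescent McSC replicate 2 (0.112) or melanocyte replicate 2 (adjusted p = 0.0644), with the fold change between -1.88 and -2.21. Without melanocyte replicate 1 the fold change was -1.61 and called (edgeR adjusted p = 0.000372).

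Myo5a, the motor that holds melanosomes on actin (chr9:75069799-75223688), read 1123 and 1152 CPM in quiescent McSC and 269, 522 and 451 CPM in melanocytes. All melanocyte libraries were below both quiescent ones. The fold change was -1.46 ± 0.28 (edgeR adjusted p = 0.00604) and stayed called with any library left out (-1.22 to -1.69).

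Sytl2, a Rab27 effector that tethers melanosomes at the plasma membrane (chr7:90302211-90410719), read 475 and 516 CPM in quiescent McSC and 43.6, 80.0 and 77.6 CPM in melanocytes. The groups were far apart in every library, and the fold change was -2.89 ± 0.27 (edgeR adjusted p = 0.000436), or -2.65 without melanocyte replicate 1. Myrip, which links Rab27a to the motor myosin VIIa in retinal pigment cells, had few reads: 189 and 496 counts in quiescent McSC and 27, 20 and 5 counts in melanocytes. These are 3.03 and 4.43 CPM against 0.666, 0.293 and 0.267 CPM, and the fold change was -3.16 ± 0.50 (edgeR adjusted p = 0.00268). Among the melanocyte libraries, replicate 1 was the highest for Myrip, unlike for Mlph, Myo5a and Sytl2.

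Mreg, melanoregulin (chr1:72159233-72212314), a membrane-bound factor known as a modifier of the coat colour of Rab27a-pathway mutants, went the other way. It read 22.2 and 23.6 CPM in quiescent McSC and 122, 178 and 112 CPM in melanocytes. Every melanocyte library was above both quiescent ones, and replicate 1 was not the lowest. The fold change was 2.58 ± 0.24 (edgeR adjusted p = 0.000384), and it stayed called with any library left out (2.32 to 2.71). Melanocyte replicate 1 stood at log2 ratios of -2.24, -2.07, -0.85, -0.85, 1.12 and -0.25 to the mean of the other 2 melanocyte libraries for Rab27a, Mlph, Myo5a, Sytl2, Myrip and Mreg, beside the median of -2.55 for the 8 melanocyte markers. Myo5a, Sytl2 and Mreg were thus less reduced in that library than any lineage marker, the highest of which stood at -1.57.

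**Figure D2:**
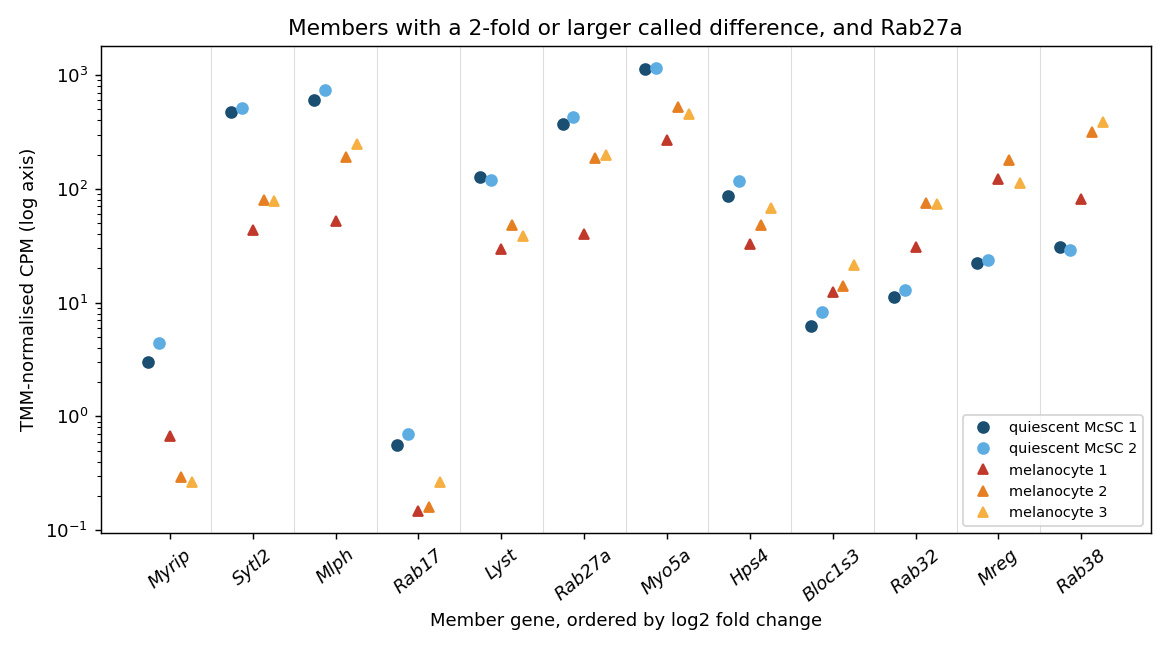
TMM-normalised CPM on a log axis in each of the 5 libraries for the 11 members called with at least a 2-fold difference and for Rab27a, circles for quiescent McSC and triangles for melanocytes. No gene shown overlaps between the groups, and melanocyte replicate 1 is the lowest melanocyte library for all of them other than Myrip and Mreg, by most for Rab27a (40.5), Rab38 (81.7) and Mlph (52.1).

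The Rab GTPases divided. Of 7, Rab38 and Rab32 were called higher in melanocytes, Rab11b, Rab9 and Rab17 higher in quiescent McSC, and Rab7 and Rab11a were not called (median log2 fold change -0.32). The shares were 28.6% toward melanocytes and 42.9% toward quiescent McSC, against 29.1% and 26.2% of all genes. Rab38 and Rab32 are related GTPases that act on the same route from endosomes to melanosomes.

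Rab38 (chr7:88430273-88491572) read 31.0 and 29.1 CPM in quiescent McSC and 81.7, 319 and 389 CPM in melanocytes. All melanocyte libraries were above both quiescent ones, with replicate 1 the lowest. The fold change was 3.13 ± 0.67, an 8.77-fold difference (edgeR adjusted p = 0.00905). The call was lost without quiescent McSC replicate 1 (edgeR adjusted p = 0.0641) or 2 (0.0694), where the fold changes were 3.18 and 3.09.

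Rab32 (chr10:10545039-10558207) read 11.1 and 13.0 CPM in quiescent McSC and 30.8, 75.5 and 73.3 CPM in melanocytes. All melanocyte libraries were again above both quiescent ones, with replicate 1 the lowest. The fold change was 2.31 ± 0.42 (edgeR adjusted p = 0.00463) and stayed called with any library left out (2.08 to 2.63). Among the melanocyte markers, the pigment enzyme gene Tyr read 400 and 334 CPM in quiescent McSC and 219, 1456 and 1676 CPM in melanocytes, and the melanosome protein gene Mlana 219 and 192 against 139, 731 and 953 CPM. Like Rab38 and Rab32, they were higher in melanocyte replicates 2 and 3 than in quiescent McSC, as were Pmel and Tyrp1. In replicate 1 these 4 markers were below both quiescent libraries, and none of the 4 was called. Dct, Mitf, Sox10 and Kit went the other way, with every melanocyte library below both quiescent ones. Dct stood at 10444 and 11528 CPM in quiescent McSC, against 1073, 5777 and 6505 CPM (-1.30 ± 0.69, edgeR adjusted p = 0.155). Mitf (-3.45), Sox10 (-1.81) and Kit (-2.13) were called higher in quiescent McSC.

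Rab17, a GTPase tied to melanosome release, was near the limit of detection, with 35 and 79 counts in quiescent McSC and 6, 11 and 5 counts in melanocytes. These are 0.561 and 0.705 against 0.148, 0.161 and 0.267 CPM (log2 fold change -1.79 ± 0.46, edgeR adjusted p = 0.0182). The call was lost without quiescent McSC replicate 1 (0.0642), quiescent McSC replicate 2 (0.113) or melanocyte replicate 2 (adjusted p = 0.0517). Rab17 lies on chromosome 1 from 90958133 to 90969673, and Mlph from 90915024 to 90951142. Rab11b, of recycling endosomes, read 186 and 206 against 121, 122 and 108 CPM (-0.75 ± 0.11, edgeR adjusted p = 0.00241), and its relative Rab11a 85.3 and 84.4 against 66.2, 87.8 and 77.1 CPM (-0.14 ± 0.14). The Rab11a groups overlapped and the Rab11b groups did not. Rab9, of late endosomes, fell by 0.55 ± 0.15 (edgeR adjusted p = 0.0244), lost as a call when quiescent McSC replicate 1 (0.154), quiescent McSC replicate 2 (0.064) or melanocyte replicate 3 (adjusted p = 0.0709) was left out and with library size only (0.0873). Rab7, the late endosome GTPase, stood at 352 ± 3.06 and 281 ± 46.9 CPM and was called lower in melanocytes only without melanocyte replicate 2 (-0.48, edgeR adjusted p = 0.035).

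Of the 13 genes of the BLOC complexes, 2 were called higher in melanocytes, 4 higher in quiescent McSC and 7 not called (median log2 fold change -0.20). The share called was 46.2%, against 55.4% of all genes, and 11 of the 13 lay within a 2-fold difference. In BLOC-1, Bloc1s3 read 6.19 and 8.34 CPM in quiescent McSC and 12.5, 13.9 and 21.3 CPM in melanocytes. All melanocyte libraries were above both quiescent ones (1.12 ± 0.30, edgeR adjusted p = 0.0212), and the call was lost without quiescent McSC replicate 1 (0.128) or 2 (0.0577). Bloc1s2 was called higher in melanocytes (0.47 ± 0.15, edgeR adjusted p = 0.0372), a call lost after thinning of the reads (0.0804) and without any library other than melanocyte replicate 1 (0.099 to 0.152). Snapin, a BLOC-1 subunit that also binds fusion proteins, read 67.9 and 69.1 CPM in quiescent McSC and 34.8, 41.5 and 47.6 CPM in melanocytes. It was called lower in melanocytes (-0.73 ± 0.15, edgeR adjusted p = 0.0075), a call lost without quiescent McSC replicate 2 (0.051). Snapin shares 17.9% of its exon bases with the opposite-strand gene Ilf2, and reads there cannot be assigned without strand. Dtnbp1, Bloc1s1, Bloc1s4, Bloc1s5 and Bloc1s6 were not called (-0.74 to 0.18). Bloc1s4 stood at -0.74 ± 0.38, and was called lower in melanocytes without melanocyte replicate 3 (-1.16, edgeR adjusted p = 0.0159) and by limma-voom (-0.99, adjusted p = 0.0276).

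Both subunits of BLOC-3, the exchange factor for Rab32 and Rab38, were called higher in quiescent McSC, as were 26.2% of all genes. Hps4 read 85.7 and 117 CPM in quiescent McSC and 32.7, 47.9 and 68.5 CPM in melanocytes. The groups did not overlap, and the fold change was -1.03 ± 0.31 (edgeR adjusted p = 0.0305). Hps1 read 38.1 and 46.9 against 27.5, 31.2 and 33.2 CPM (-0.47 ± 0.15, edgeR adjusted p = 0.0363). The call of Hps4 was lost without quiescent McSC replicate 1 (0.0597), quiescent McSC replicate 2 (0.177) or melanocyte replicate 2 (0.0808) and with library size only (adjusted p = 0.0606). That of Hps1 was lost without any 1 library (0.0511 to 0.239) and with library size only (adjusted p = 0.171). Leaving out each library in turn, the fold change of Hps4 ran from -0.79 to -1.32. In BLOC-2, Hps5 was called higher in quiescent McSC (-0.36 ± 0.11, edgeR adjusted p = 0.0302), a call lost with library size only (0.29) and without any library other than melanocyte replicate 2 (adjusted p = 0.0529 to 0.18). Hps3 (-0.20 ± 0.26) and Hps6 (0.58 ± 0.28) were not called.

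Among the adaptors, AP-3 subunits divided. Ap3d1, the large subunit mutated in mocha mice, read 238 and 266 CPM in quiescent McSC and 133, 153 and 156 CPM in melanocytes. The melanocyte libraries were all below and close to each other (-0.78 ± 0.13, edgeR adjusted p = 0.00307). The other large subunit, Ap3b1, mutated in pearl mice, fell by 0.59 ± 0.14 (edgeR adjusted p = 0.0133), and was not called when quiescent McSC replicate 1 (0.0798) or 2 (0.0615) was left out. The medium subunit Ap3m1 (0.09 ± 0.15) and the small subunit Ap3s1 (0.10 ± 0.19) were not called, and the small subunit Ap3s2 was called higher in melanocytes (0.40 ± 0.11, edgeR adjusted p = 0.0225). The Ap3s2 call was lost without any library other than melanocyte replicate 1 (0.0551 to 0.143). Ap3m1 shares 31% of its exon bases with the opposite-strand gene Vcl. Ap1m1, the medium subunit of AP-1, read 103 and 111 CPM in quiescent McSC and 59.8, 72.3 and 60.9 CPM in melanocytes (-0.73 ± 0.12, edgeR adjusted p = 0.00338). Kif13a, the kinesin that works with AP-1 in cargo export, read 112 and 120 against 75.2, 76.3 and 78.1 CPM (-0.61 ± 0.09, edgeR adjusted p = 0.00249). Ap3d1, Ap1m1 and Kif13a stayed called under all 14 alternatives.

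Of the 6 HOPS genes, 3 were called (50%, near the 55.4% of all genes), all toward quiescent McSC and by less than 2-fold (median log2 fold change -0.22). Vps11 read 121 and 127 CPM in quiescent McSC and 74.9, 89.4 and 84.9 CPM in melanocytes, without overlap (-0.58 ± 0.11, edgeR adjusted p = 0.00619). Vps41 (-0.50 ± 0.16, edgeR adjusted p = 0.0348) and Vps39 (-0.48 ± 0.11, edgeR adjusted p = 0.0112) are the subunits that set HOPS apart from the related CORVET complex. The Vps41 call was lost without quiescent McSC replicate 1 (0.143), quiescent McSC replicate 2 (0.123) or melanocyte replicate 3 (adjusted p = 0.087), and that of Vps39 without quiescent McSC replicate 1 (0.0843). Vps16 (0.34 ± 0.12, edgeR adjusted p = 0.054, or 0.0375 without melanocyte replicate 2), Vps33a (0.24 ± 0.12) and Vps18 (0.05 ± 0.19) were not called. They are subunits of the shared core, as is Vps11, which was called. With library size only, Vps16 (0.57) and Vps33a (0.46) were called higher in melanocytes and Vps41 and Vps39 were not called (edgeR adjusted p = 0.106 and 0.0695), so the split of HOPS depends on the scaling.

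Lyst, the trafficking regulator mutated in beige mice and in Chediak-Higashi syndrome (chr13:13590311-13778803), read 128 and 119 CPM in quiescent McSC and 29.6, 48.4 and 38.7 CPM in melanocytes. All melanocyte libraries were below both quiescent ones. The fold change was -1.66 ± 0.20 (edgeR adjusted p = 0.00108), and it stayed called with any library left out (-1.49 to -1.88). Rabggta, a subunit of the enzyme that adds lipid anchors to Rab proteins, is mutated in gunmetal mice. It was not called (0.30 ± 0.13, edgeR adjusted p = 0.0995), and was called higher in melanocytes with library size only (0.53, edgeR adjusted p = 0.0321).

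**Figure D3:**
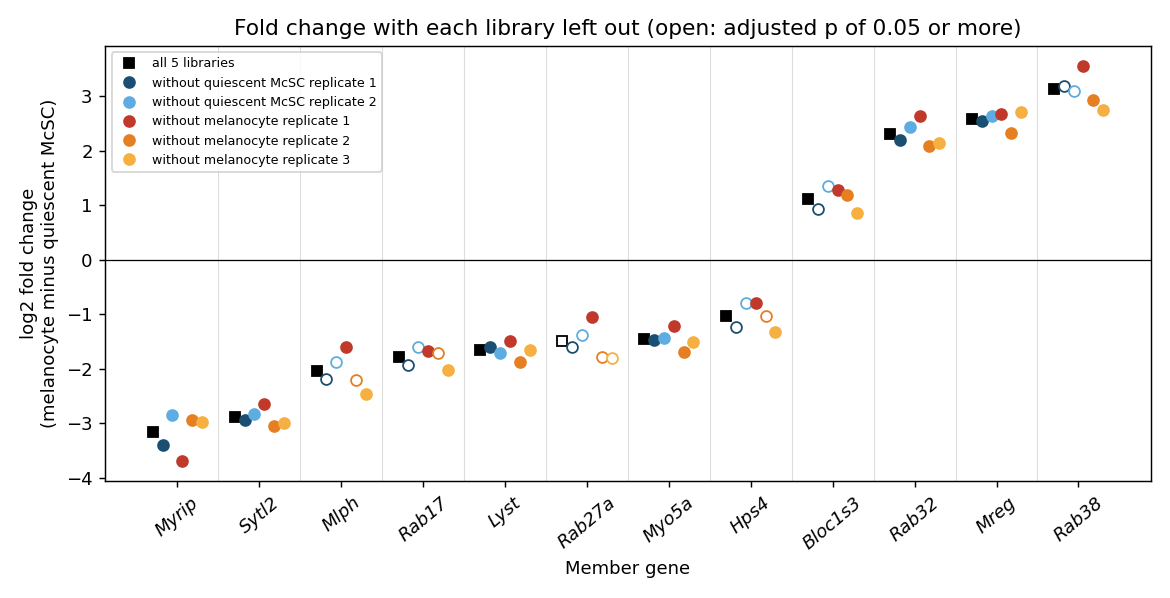
Log2 fold change (melanocyte minus quiescent McSC) of the same 12 genes with all 5 libraries (squares) and with each library left out (circles), open where the adjusted p is 0.05 or more. Every direction is kept; leaving out a quiescent McSC library opens the symbols of Rab38, Mlph, Hps4, Bloc1s3 and Rab17, and leaving out melanocyte replicate 1 fills that of Rab27a (-1.06).

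Levels can be compared between genes only per length, here as CPM per kilobase of exon (means ± SD). In quiescent McSC the highest members were Mlph (149 ± 22.1), Rab7 (135 ± 1.17), Sytl2 (129 ± 7.56), Rab27a (127 ± 13.3) and Myo5a (96.6 ± 1.77), so 4 of the first 5 belonged to the Rab27a group. Mlph, Rab7, Sytl2 and Rab27a did not differ beyond their spread, and Myo5a was above the next gene, Ap3d1 (52.4 ± 4.24). In melanocytes the order was Rab38 (167 ± 102), Rab7 (108 ± 18), Mreg (60.1 ± 15.7), Rab27a (44.7 ± 27.7) and Bloc1s1 (42.7 ± 3.41), and the spread of Rab38 covers Rab7. Rab38 was in place 22 of 41 in quiescent McSC and in place 1 in melanocytes, Mreg moved from place 30 to 3, and Sytl2 from 3 to 23. Myrip (0.760 and 0.0833) and Rab17 (0.318 and 0.0965) were the lowest pair in both groups. Bloc1s1 shares 28.1% of its exon bases with Rdh5, so its level is uncertain.

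**Figure D4:**
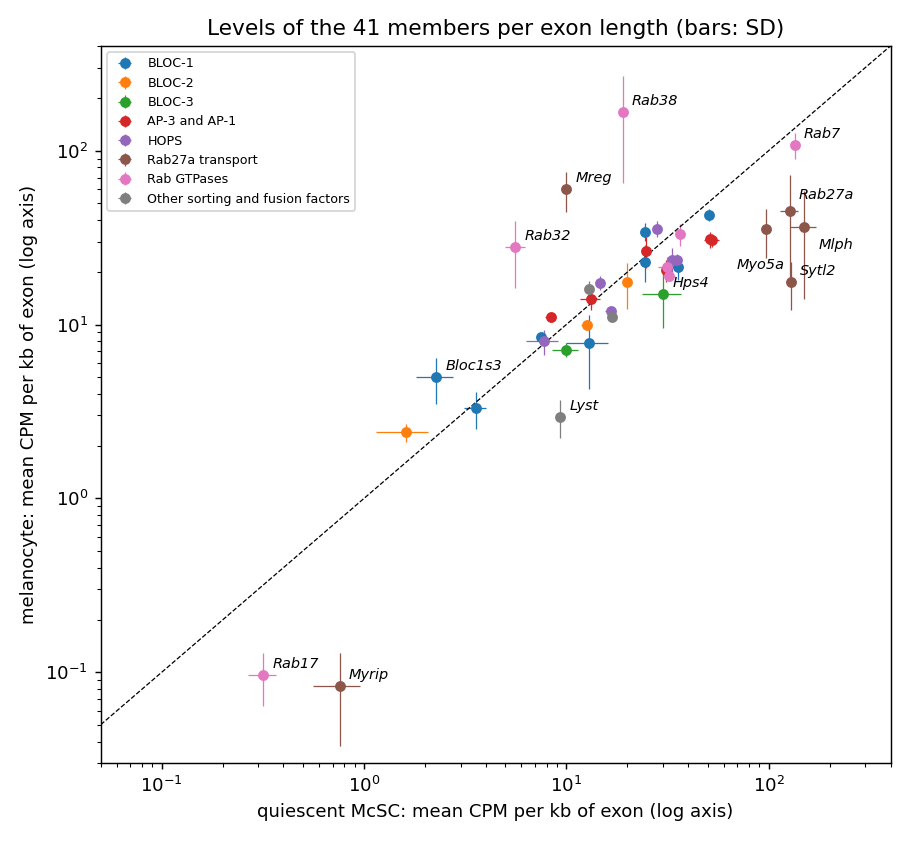
Mean CPM per kilobase of exon in melanocytes (vertical, n = 3) against quiescent McSC (horizontal, n = 2) for the 41 members, both axes log, bars SD, the dashed line marking equal levels. Rab38 (19.0 against 167), Mreg (60.1 in melanocytes) and Rab32 (5.60 against 27.9) lie above the line and Sytl2 (129 against 17.5) furthest below it among the abundant genes.

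Beyond the members, 68 other genes of the same machinery were counted: further adaptor subunits, BORC and Arl8, CORVET, Rab regulators and effectors, prenylation enzymes, SNAREs, motors and endosomal sorting factors. Of these, 11 were called toward melanocytes and 18 toward quiescent McSC, 16.2% and 26.5% against 29.1% and 26.2% of all genes (median log2 fold change -0.21). Fewer of these genes, and also fewer of all genes, were called higher in melanocytes without quiescent McSC replicate 1.

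The AP-1 and AP-3 subunits outside the members moved in both directions. Of 9, 5 were called higher in melanocytes and 2 toward quiescent McSC (55.6% and 22.2%, against 29.1% and 26.2% of all genes). Ap1m2, the medium AP-1 subunit of epithelial cells, read 8.0 and 8.72 CPM in quiescent McSC and 83.2, 85.5 and 67.5 CPM in melanocytes (3.23 ± 0.16, edgeR adjusted p = 6.8e-05), whereas Ap1m1 fell. Of the small AP-1 subunits, Ap1s1 rose from 31.7 ± 1.15 to 77.4 ± 6.83 CPM (1.29 ± 0.12, edgeR adjusted p = 0.000411) and Ap1s2 fell from 181 ± 10.7 to 38.6 ± 11.0 CPM (-2.23 ± 0.24, edgeR adjusted p = 0.000634). Ap3m2, the medium subunit of the neuronal form of AP-3, fell from 115 ± 5.31 to 20.4 ± 7.40 CPM (-2.51 ± 0.30, edgeR adjusted p = 0.00101). Ap3b2, also a subunit of that form, went the other way at a low level. It rose from 0.198 ± 0.0149 to 2.66 ± 0.64 CPM (3.75 ± 0.43, edgeR adjusted p = 0.000839). Beside these, the 11 hair follicle markers stood at 3578 to 5237 against 20.7 to 67.8 CPM, and their part in the difference of Ap1m2 was not tested.

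Of 11 regulators and effectors of Rab32, Rab38 and Rab27, 3 were called higher in melanocytes and 2 toward quiescent McSC. These shares were 27.3% and 18.2%, against 29.1% and 26.2% of all genes. Ankrd27, Sgsm2, Sytl3, Sytl4, Sytl5 and Unc13d were not called. Rab27b, the close relative of Rab27a, read 3.32 and 5.0 CPM in quiescent McSC and 31.2, 37.0 and 21.0 CPM in melanocytes (2.84 ± 0.33, edgeR adjusted p = 0.000912). The effectors Sytl1 (1.54 ± 0.20, edgeR adjusted p = 0.00141) and Exph5 (1.16 ± 0.20, edgeR adjusted p = 0.00414) were also called higher in melanocytes. Toward quiescent McSC were Madd, an exchange factor for Rab27 (-0.75 ± 0.14, edgeR adjusted p = 0.00482), and Tbc1d10a, which inactivates Rab27a (-1.21 ± 0.13, edgeR adjusted p = 0.000626). In melanocyte replicate 1, where the lineage markers were lowest, Rab27b (31.2 CPM) lay between the other 2 libraries, Sytl1 (69.6 CPM) was above both, and Exph5 (15.5 CPM) lay between them. Among genes of movement, Plekhm2, which joins Arl8 on lysosomes to kinesin, read 485 and 704 CPM in quiescent McSC and 57.1, 78.0 and 83.8 CPM in melanocytes (-3.03 ± 0.24, edgeR adjusted p = 0.000228). Borcs6, of the BORC complex that recruits Arl8, fell by 1.66 ± 0.18 (edgeR adjusted p = 0.000625). Myo7a, the motor that Myrip binds, read 293 and 337 against 27.6, 85.4 and 97.4 CPM (-2.17 ± 0.49, edgeR adjusted p = 0.0109), a call lost without quiescent McSC replicate 2 (0.0584). All 3 other genes of Rab prenylation (Rabggtb, Chm and Chml) were called higher in quiescent McSC (-0.51 to -0.88). Of 9 SNAREs, the membrane fusion proteins, 2 were (Stx12 and Stx7, 22.2%). In that direction 26.2% of all genes were called.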

How the data were processed

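The table deposited by the authors holds whole-number counts per gene and library, read as raw counts without normalization. Per the submitters' processing notes, the build was mm10 and the tools named are STAR 2.5.2a and Salmon 0.8.2. The program that made the counts and its annotation: not given in the sources used here. Entrez identifiers were matched to RefSeq symbols (GRCm38.p6) for 24045 of 24100 genes. Counts were filtered (filterByExpr), TMM-normalized and tested with the two-sided quasi-likelihood test (edgeR 4.0.16, R 4.3.3), with Benjamini-Hochberg adjustment over all 16953 genes; all 5 libraries entered 1 fit without covariates. Each standard error is the absolute log2 fold change over the root of its F statistic. The procedure was tested on simulated counts with known fold changes and the same spread for every gene. These held no outlying library like melanocyte replicate 1, so they do not show how such a library affects the calls. Exon lengths are unions of GENCODE M21 basic exons. Each library is a separate pool of males per the labels, and no 2 libraries agreed within sampling noise. Every member is named; values by library are given for members called with an absolute log2 fold change of at least 1 and for Rab27a, Mlph and Myo5a, and for other members chosen after their values were seen. Of the other genes, the 5 called genes of at least 5 CPM that changed most each way are named, with a few added after their values were seen. The members and lists were chosen with earlier results of these data known. The planned comparison of related proteins was not made, as no protein sequences were used here. Alternatives were RLE factors, library size only, library sizes without the 20 most abundant genes, no filter, a filter of 5 CPM in 2 libraries, limma-voom (limma 3.58.1), DESeq2 1.42.0, a replicate block, thinning to the shallowest library, and leaving out each library. Reads of near-identical genes may be split in ways the counts do not show.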

Additional observations from a re-analysis of the deposited data

How the results depend on the processing

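Of the 25 members called, 11 stayed called under every one of the 14 alternatives that tested them: Ap3d1, Ap1m1, Vps11, Myo5a, Myrip, Sytl2, Mreg, Rab32, Rab11b, Kif13a and Lyst. Myrip and Rab17 were not tested at 5 CPM in 2 libraries. The same count over all called genes is not given here, so the 11 cannot be compared with a background. RLE factors and no filter changed no member's call. With library size only, 11 members were higher in melanocytes, and the counts toward melanocytes and quiescent McSC were 4 and 1 of the BLOC genes, 2 and 1 of HOPS, and 1 higher in melanocytes of the other sorting and fusion factors. Without the 20 most abundant genes in library sizes, 10 members were higher in melanocytes, 1 BLOC gene was higher in quiescent McSC, and 2 HOPS genes and 1 other factor were higher in melanocytes. Under these 2 scalings the direction turned for Bloc1s5 (0.11 and 0.06), Dtnbp1 (0.12 and 0.07) and Rab11a (0.08 and 0.03), and under the first for Hps3 (0.02), none of them called. DESeq2 called 1 HOPS gene, Vps16, higher in melanocytes, and thinning left 1 BLOC gene higher there.

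The replicate number shared by the groups comes only from the titles. Deviations from the group means were close to uncorrelated between same-numbered libraries (correlation 0.0404 for number 1 and -0.0552 for number 2). This cannot decide on a pairing, as the deviations of 2 quiescent libraries mirror each other. Each library is a separate pool and the groups differed in age, so the number was not taken as a pairing. With the replicate number as a block, 18 members were called, 16 of them also without it. Melanocyte replicate 3, alone in its block, did not inform these fold changes. The counts were 1 BLOC gene and 0 of AP-3 and AP-1 higher in melanocytes, and 1 of HOPS and 1 Rab GTPase higher in quiescent McSC; Ap3s1 (-0.03) and Vps18 (-0.06) turned, neither called.

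With each library left out in turn, the number of all genes higher in quiescent McSC ran from 2955 to 4857. Toward melanocytes the members ran from 2 to 6, the other genes of the machinery from 7 to 14, the BLOC genes from 0 to 2, AP-3 and AP-1 from 0 to 1, HOPS from 0 to 1 and the Rab GTPases from 1 to 2. Toward quiescent McSC the members ran from 10 to 18, the BLOC genes from 0 to 3, HOPS from 1 to 3 and the Rab GTPases from 1 to 3. Fold changes near 0 turned for Ap3m1 (-0.02 to 0.20), Ap3s1 (-0.00 to 0.26), Bloc1s5 (-0.24 to 0.08), Dtnbp1 (-0.25 to 0.09), Hps3 (-0.36 to 0.03) and Vps18 (-0.13 to 0.25), none of them called. Leaving out a quiescent McSC library leaves 1, which is assumed to vary like the melanocyte libraries. In these fits fewer of all genes were called as well, in each direction. The cause of the other changes was not tested. Groups of 2 and 3 libraries limit the precision, and Rab17 and Myrip rest on as few as 5 counts in a library.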

Other observations

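Per kilobase of exon, the ratio of Rab11a to Rab11b was 1.20 and 1.07 in quiescent McSC and 1.43, 1.88 and 1.87 in melanocytes, and that of Rab27a to Mlph 0.877 and 0.824 against 1.11, 1.39 and 1.14. Neither ratio overlapped between the groups, and neither difference was tested. The ratio of Rab32 to Rab38 was 0.262 and 0.328 in quiescent McSC and 0.277, 0.174 and 0.138 in melanocytes, which overlapped. That of Ap3s1 to Ap3s2 was 3.21 and 2.74 against 1.96, 2.48 and 2.79, which also overlapped.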
